A study of Mus musculus with 12 samples.

Results

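The MYC, MAX and MXD network was followed in mouse hematopoietic stem cells (HSCs) through 10 genes: Myc, Mycn, Mycl, Max, Mxd1, Mxd4, Mxi1, Mnt, Mlx and Mga. They were taken by symbol as the MYC paralogs, their partner and the repressors that compete for it. Earlier results of these data were known when they were chosen. All 10 were among the 27179 genes of the count table, and all 10 passed the filter on low counts that left 14473 genes for testing. The cells were sorted from C57BL/6J mice, 3 mice of each of 4 genotypes, and total RNA of each mouse gave 1 library. Group WT (libraries WT2, WT3 and WT4) was wild type. Group E (E1, E2 and E3) carried the Emu-myc transgene with intact caspases. Group C (C1, C2 and C3) was Casp1 -/- Casp11 -/- without the transgene, and group CE (CE1, CE2 and CE3) carried both the transgene and the caspase knockouts. The Emu element is the immunoglobulin heavy chain enhancer, which is active in the B lineage, so the transgene is a model of MYC excess in B cells rather than one built for expression in HSCs. No source used here gives the age or sex of the mice or the sort markers.

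MYC, MYCN and MYCL are transcription factors that bind DNA only when paired with MAX, and their preferred site is the E-box CACGTG. MXD1, MXD4, MXI1 and MNT pair with the same partner, bind the same site and repress it through SIN3 and histone deacetylases, so that the balance of the 2 kinds of pair sets the output of shared targets. MLX is a relative of MAX that pairs with MXD1, MXD4, MNT and the nutrient sensor MondoA, and MGA pairs with MAX in a Polycomb repressor complex. In mouse HSCs, Myc and Mycn are known to act together in balancing self-renewal against differentiation.

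Libraries held 24529611 to 34065910 counts. The 12 HSC markers examined had mean levels of at least 1 CPM (a count scaled to a common library size) in every group, and their sum ran from 1020 to 1413 CPM. C1 and C3 stood apart with counts in 22900 and 21247 genes, against 17310 to 18863 in the other libraries. The 4 Y-linked genes summed to 88.2 to 121 CPM in all C libraries, CE1 and CE2, and to at most 0.265 CPM in the other 7 libraries, so sex went with the caspase label in every library except CE3. The 10 immediate early genes, among them Fos, Jun and Egr1, summed to 14234 to 17047 CPM in the 6 libraries with the caspase knockout label and to 13995 CPM in WT4. They summed to 5600 to 8074 CPM in the other 5 libraries. Effects of the caspase label cannot be told apart from those of sex in these libraries, apart from what CE3 adds, and results that rest on it are given with these values.

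The members' own promoters were searched for the E-box that MYC and MAX bind, since MYC and its relatives act on E-boxes near start sites. The windows were those of RefSeq (GRCm38.p6), 250 bases before to 50 bases after a start site. Of the 10 genes, 9 had a window, and Myc had none in the table. The palindrome CACGTG, read on both strands, lay in the windows of Mxd4, Mnt, Mlx and Max, and in 7.15% of all 32851 windows. The 4 sites are shown in capitals with up to 12 bases on each side, on the strand of the gene: Mxd4 at chr5:34187912-34187941 (-), Mnt at chr11:74830789-74830818 (+), Mlx at chr11:101087238-101087267 (+) and Max at chr12:76962246-76962263 (-).
Mxd4: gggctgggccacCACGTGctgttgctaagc
Mnt: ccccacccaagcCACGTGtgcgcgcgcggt
Mlx: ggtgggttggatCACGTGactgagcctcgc
Max: ggtgagcccggtCACGTG
The sites began 219, 123, 40 and 3 bases before the start sites that define these windows of Mxd4, Mnt, Mlx and Max. For Mnt, Mlx and Max these start sites lie inside the gene spans given below. The stretches shown for Mlx and Max lie inside those spans too, and that of Mnt crosses the start of its span.

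The Mycn window held 2 copies of TTTGGCGC, the sequence bound by E2F factors, which was searched on both strands and lay in 0.514% of all windows. They began 183 and 168 bases before the start site and are shown in capitals, because Mycn had the smallest p of the members in the average transgene effect (the mean of E and CE minus the mean of WT and C on the log2 scale). The stretch is chr12:12941988-12942043 (-).
Mycn: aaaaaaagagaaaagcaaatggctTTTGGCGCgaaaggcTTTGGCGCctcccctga
A match to these letters describes the sequence and does not show that a factor was bound.

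To compare the genes with each other, the CPM were divided by the length in kilobases of the longest annotated transcript. On this scale Myc had the highest level of the network, 166.1 ± 21.6 CPM per kilobase (SD over 12 libraries), and Max, the obligate partner, followed at 60.7 ± 3.66. Mlx (22.5 ± 2.05), Mycn (20.4 ± 2.86) and Mnt (18 ± 2.44) formed a middle group whose ranges overlapped. Mxi1 and Mxd4 both had a mean of 10.3 CPM per kilobase, and Mga (6.37 ± 1.14), Mxd1 (6.26 ± 0.699) and Mycl (2.32 ± 0.487) were lowest. Of the 9 steps in this order, those from Myc to Max, from Max to Mlx and from Mxd1 to Mycl had ranges that did not touch. At the other 6 steps the ranges touched, but Mnt lay above Mxi1 in 12 of 12 libraries and Mxd4 above Mga in 11. At the remaining 4 steps the higher gene was above the next in 5 to 8 of the 12 libraries, so those neighbours did not differ beyond their spread. The order depends on the transcript chosen. With the median length of protein-coding transcripts Myc stayed first at 220.0 CPM per kilobase, but Mnt came second at 132.5 then Mxd1 at 69.9. Their annotated coding transcripts include short ones, and this median, the lower middle value, was for both the shortest coding length (622 and 418 bases).

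**Figure D1:**
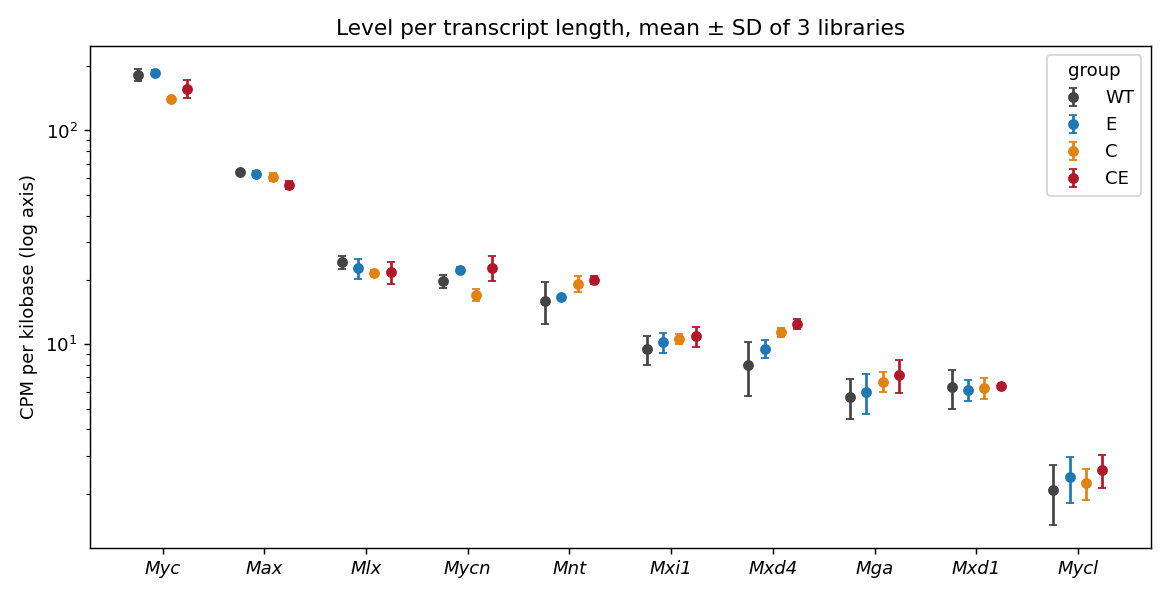
Level of the 10 genes per transcript length in CPM per kilobase on a log axis, ordered from high to low; points are group means and bars the SD of 3 libraries. Myc lies above Max in every group, and Mycl is lowest at 2.08 to 2.58 CPM per kilobase.

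Myc (gene 17869, chromosome 15, 61985341 to 61990361, mm10) encodes the MYC protein, and reads were counted per gene, so transcripts of a Myc transgene and of the endogenous gene were not separated. Its level was 447.3 CPM in WT2, 436.8 in WT3 and 393.6 in WT4, and 424.5 in E1, 448.5 in E2 and 427.8 in E3. The transgenic libraries lay within or at the edge of the wild-type range. The fitted difference of E against WT was 0.03 on the log2 scale (SE 0.10, edgeR adjusted p = 0.967). With the caspase knockouts, Myc was at 336.6 CPM in C1, 324.3 in C2 and 319.4 in C3, and at 346.7 in CE1, 344.6 in CE2 and 409.5 in CE3. All CE libraries lay above all C libraries, by a margin that CE3 widened. The difference of CE against C was 0.17 (SE 0.10, adjusted p = 0.999), and 0.08 without CE3, the library of this group that lacks Y-linked transcripts. So the transgene label went with no change of Myc that passed the test on either caspase background, and the difference between the 2 transgene effects did not pass either (log2 0.14, SE 0.14, adjusted p = 1).

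For the caspase label (its average effect is the mean of C and CE minus the mean of WT and E) Myc was the member with the smallest p. All C libraries lay below all WT libraries, a log2 difference of -0.38 (SE 0.10, adjusted p = 0.0579) that missed the threshold in edgeR and passed with DESeq2 (adjusted p = 0.00544) and limma voom (0.00685). It also passed without WT4 (0.0112). Those fits called 1195, 1773 and 2258 of all genes in that order, against 95 in the main fit. CE against E gave -0.24 (SE 0.10, adjusted p = 0.156), again without overlap of the groups. Over both backgrounds, the 6 libraries with the caspase knockout label had a median of 340.6 CPM (319.4 to 409.5) and the other 6 a median of 432.3 (393.6 to 448.5). The ranges overlap through CE3 and WT4 alone. In this average caspase effect Myc fell 1.24-fold (log2 -0.31, SE 0.07, edgeR adjusted p = 0.00816). WT4, the lowest wild-type library for Myc, is the wild-type library with high immediate early transcripts, and CE3, the highest of its group, is the one without Y-linked transcripts. With the Y-linked call as a covariate the Myc difference was -0.11 (SE 0.13, adjusted p = 0.653). With the mean immediate early level as a covariate, chosen after the data were seen, it was -0.16 (SE 0.11, adjusted p = 0.423). Of all genes, 2 passed in the first of these fits and 7 in the second, against 3042 in the main fit. The loss of the call is therefore not particular to Myc.

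Mycn (gene 18109, chromosome 12, 12936093 to 12941836), the paralog that supports Myc in HSCs, was at 53.2, 56.3 and 48.6 CPM in WT2, WT3 and WT4 and at 61.7, 58.1 and 58.5 in E1, E2 and E3. Every E library lay above every WT library, with a fitted difference of 0.17 (SE 0.10, adjusted p = 0.77). With the knockouts its values were 42.1, 46.6 and 47.3 CPM in the 3 C libraries in order, and 55.3, 57.5 and 70.1 CPM in the 3 CE libraries. Here too the groups did not overlap, and CE3 was the highest of the 12 libraries. The log2 difference of CE against C was 0.43 (SE 0.10), with an adjusted p of 0.209 in edgeR, 0.0464 in DESeq2 and 0.047 in limma voom. Those fits called 30, 66 and 109 of all genes in that order. Without CE3 the difference was 0.32 (edgeR adjusted p = 0.787). Averaged over both backgrounds, Mycn was 1.23-fold higher with the transgene label (log2 0.30, SE 0.07). This did not pass in edgeR (adjusted p = 0.106) or limma voom (0.104) and passed in DESeq2 (0.0192). These tools called 78, 177 and 208 of all genes in that order. The libraries with the transgene label had 55.3 to 70.1 CPM and those without it 42.1 to 56.3, so the ranges overlap between CE1 and WT3.

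The same label went with fewer B-lineage transcripts in these sorted cells. Of the 11 B-lineage markers, 10 fell in the average transgene effect, where 0.352% of all genes did. Their sum was 107.3 to 213.5 CPM in WT and 189.1 to 286.7 in C, against 83.2 to 98.4 in E and 82.9 to 88.7 in CE, and none of the 11 was at 0 in all libraries of a group. In bulk samples, fewer cells of a type and less RNA per cell cannot be told apart. HSC markers moved with the label too: 2 of 12 rose in the average transgene effect, beside 0.187% of all genes. These were Hlf, higher by 1.39-fold (adjusted p = 0.0138), and Mecom, higher by 1.48-fold (adjusted p = 0.031). All 12 lay above 0, with a median of 0.25. Their sum was 1020 to 1158 CPM in WT and 1126 to 1270 in E, and 1167 to 1248 CPM in C and 1353 to 1413 in CE. All 9 erythroid markers tested and all 6 basophil and mast cell markers lay below 0, with medians of -0.79 and -0.69. None of them passed. The part of these transcripts in the Mycn values was not tested.

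Mycl (gene 16918, chromosome 4, 122995588 to 123002490), the remaining paralog, was at 5.72 to 10.8 CPM over the 12 libraries, and its group ranges overlapped in all 4 comparisons of groups. Among the 3 paralogs, per transcript length, the share of Myc in the sum was 89.3 ± 0.596% in WT and 88.3 ± 0.797% in E, against 87.9 ± 0.708% in C and 86.1 ± 0.475% in CE (SD of 3 libraries). Mycn made up 9.66 ± 0.328%, 10.6 ± 0.52%, 10.7 ± 0.859% and 12.5 ± 0.371% in the same order. The share of Myc was lowest in CE, at 85.7 to 86.6%, below every library of the other groups (87.3 to 89.8%). Shares shift with the transcript length used, and that of Myc in CE was 88.6% with median coding lengths and 95.3% with the shortest.

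Max (gene 17187, chromosome 12, 76937269 to 76962323), the partner that all of these pairs except those of MLX need, was the steadiest member. Its range was 120.4 to 125.6 CPM in WT and 116.8 to 123.9 in E; the C libraries spanned 113.0 to 123.2 CPM and the CE libraries 103.1 to 112.0. CE was the lowest group, below every library of C and of E. Max did not pass in any comparison; the average caspase effect was -0.12 (SE 0.06, adjusted p = 0.147) and the average transgene effect -0.08 (SE 0.06, adjusted p = 0.751). The ratio of Myc to Max per transcript length was 2.86 ± 0.127 in WT and 2.97 ± 0.112 in E, against 2.31 ± 0.104 in C and 2.81 ± 0.212 in CE (SD of 3 libraries).

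**Figure D2:**
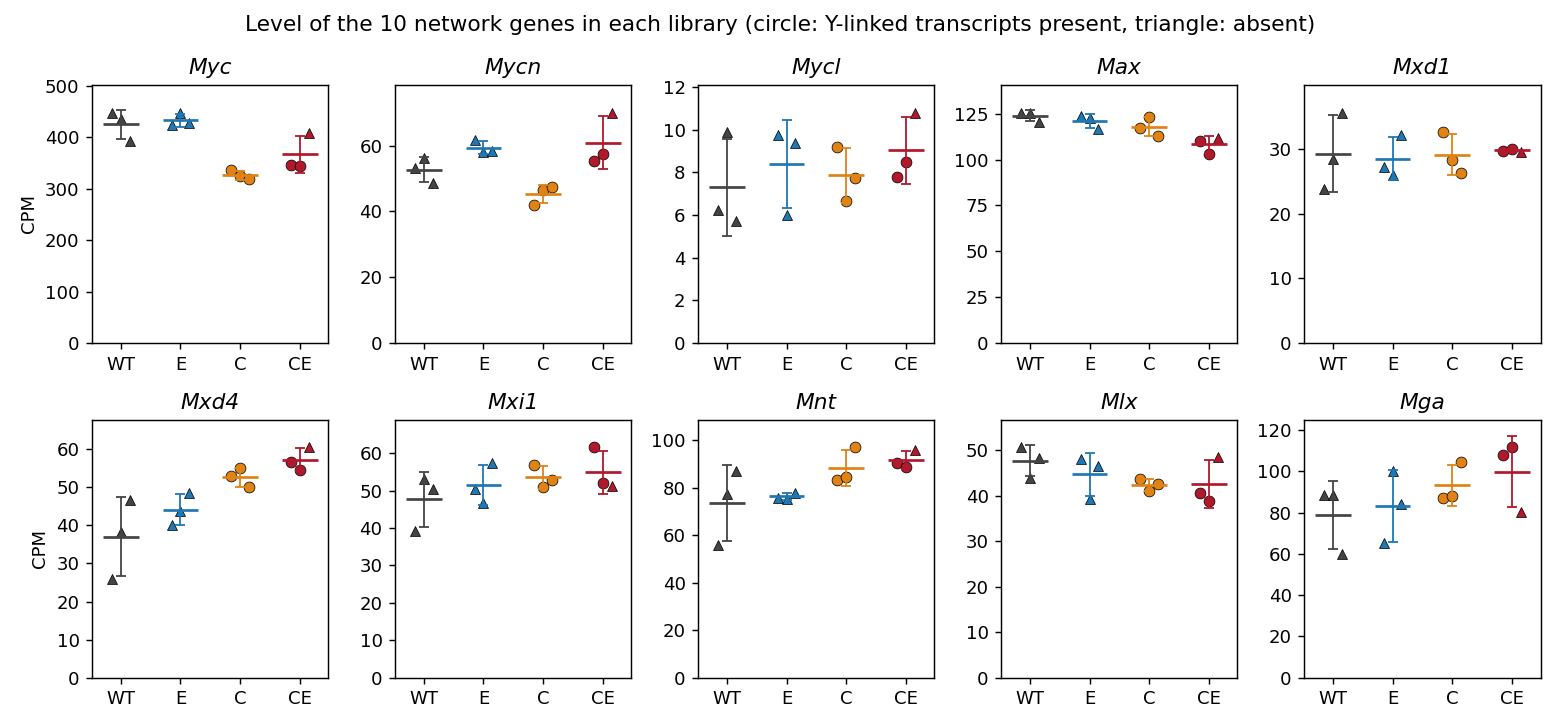
CPM of the 10 genes in each of the 12 libraries, by group, with the group mean and SD (n = 3); circles are libraries with Y-linked transcripts and triangles libraries without. Myc is at 319.4 to 336.6 CPM in C against 393.6 to 447.3 in WT, Mxd4 is above 50 CPM in all C and CE libraries, and CE3 is the only triangle in CE.

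Of the repressors, Mxd4 (gene 17122, chromosome 5, 34176580 to 34187710), known in mouse for roles in differentiating cells, differed most. It was at 26, 38.3 and 46.6 CPM in WT2, WT3 and WT4 and at 40.2, 43.7 and 48.5 in E1, E2 and E3. With the knockouts its values were 52.9, 55 and 50.1 CPM in the 3 C libraries in order, and 56.6, 54.6 and 60.5 CPM in the 3 CE libraries. All 6 libraries with the caspase knockout label (50.1 to 60.5 CPM) therefore lay above all 6 without it (26 to 48.5). The share of all genes separated over all 12 libraries was not counted. In C against WT and CE against E, 26.3% and 29.9% of all genes had groups without overlap. The average caspase effect was a 1.36-fold rise (log2 0.44, SE 0.11, edgeR adjusted p = 0.0136), and it passed in DESeq2 (0.00134) and limma voom (0.00116) as well. These tools called 3042, 3595 and 4320 of all genes in that order. WT2 held the lowest value of the series and WT4, the wild-type library with high immediate early transcripts, the highest of its group. Without WT2 the effect was 0.35 and without WT4 0.55, and both passed, in fits that called 1907 and 4667 of all genes. It was 0.55 with the Y-linked covariate (SE 0.22, adjusted p = 0.218) and 0.11 with the immediate early covariate (SE 0.16, adjusted p = 0.749). Those fits called 2 and 7 of all genes. The pair comparisons did not pass: C against WT gave 0.51 (SE 0.16, adjusted p = 0.0796) and CE against E 0.37 (SE 0.16, adjusted p = 0.172). The table gives no strand, and Mxd4 shares 514 exon bases with the antisense gene Gm42846, whose reads cannot be told apart from it.

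Mnt (gene 17428, chromosome 11, 74830806 to 74845725) encodes the most broadly expressed of the MAX-dependent repressors. Its level was 55.8, 77.4 and 87.2 CPM in WT2, WT3 and WT4 and 75.6, 75.4 and 77.9 in E1, E2 and E3. The C libraries held 83.1, 84.6 and 97 CPM, by library number, and the CE libraries 90.3, 88.9 and 95.8 CPM. Only WT4 among the libraries with intact caspases reached the range of the knockouts. The average caspase effect of 0.26 (SE 0.09) missed the threshold in edgeR (adjusted p = 0.0514), where 3042 of all genes passed. It passed in DESeq2 (0.0268), in limma voom (0.0131) and in edgeR without WT4 (0.00614). Those fits called 3595, 4320 and 4667 of all genes in that order. With the immediate early covariate the effect was 0.01 (SE 0.14, adjusted p = 0.985), and with the Y-linked covariate 0.35 (SE 0.18, adjusted p = 0.319). The fits with these covariates called 7 and 2 of all genes.

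Mxd1 (gene 17119, chromosome 6, 86647044 to 86669234), the repressor linked to terminal myeloid differentiation, was at 23.8 to 35.7 CPM over all libraries, and each group's range lay within that of WT. Mxi1 (gene 17859, chromosome 19, 53310128 to 53373293), which encodes another MAX partner of the same family, was at 39.3 CPM in WT2 and at 46.8 to 61.6 in the other 11 libraries. It shares 194 exon bases with the opposite-strand gene Gm10197. Neither gene passed in any comparison.

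Set against the 4 MAX-dependent repressors summed per transcript length, Myc stood at a ratio of 6.24 in WT2, 4.47 in WT3 and 3.60 in WT4, and of 4.43, 4.71 and 4 in E1, E2 and E3. The C libraries had ratios of 3.01, 2.98 and 2.84, by library number, and the CE libraries of 2.94, 3.08 and 3.47. All libraries with the caspase knockout label were thus below all others on this scale, with WT4 and CE3 closest to each other. With the shortest coding transcripts those 2 libraries changed places, at 3.16 in WT4 and 3.17 in CE3. With median coding lengths the ratio was 1.29, 0.943 and 0.741 in the WT libraries and 0.853 to 1 in E, against 0.605 to 0.642 in C and 0.638 to 0.742 in CE. The median taken was the lower middle value. For Mxd1, Mxd4 and Mnt it equalled the shortest coding length (418, 1160 and 622 bases). For Myc it was 1765 bases, with a shortest of 381, so this ratio sets unlike lengths against each other. Whether Myc stood above or below the summed repressors therefore depended on the transcript length used, and the order of the groups' means with and without the knockouts did not. The genes of the ratio were chosen with earlier results of these data known, and it carries no test.

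Mlx (gene 21428, chromosome 11, 101086707 to 101092207), the partner of MondoA, spanned 43.9 to 50.6 CPM in WT and 39.2 to 48.1 in E, with 41 to 43.6 CPM in C and 38.7 to 48.5 in CE. Its average caspase effect was -0.12 (SE 0.08, adjusted p = 0.303), and Mlx shares 385 exon bases with Psmc3ip on the opposite strand. Mga (gene 29808, chromosome 2, 119872503 to 119970129), the scaffold of a MAX-containing Polycomb complex, varied more between replicates, from 59.9 CPM in WT4 to 111.6 in CE2. Its average caspase effect of 0.25 (SE 0.12) did not pass (edgeR adjusted p = 0.164). It was 0.70 with the immediate early covariate (SE 0.19, adjusted p = 0.148) and -0.14 with the Y-linked covariate (SE 0.23, adjusted p = 0.767).

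Counted over the network, 0 of the 10 members passed in E against WT with edgeR, 0 had an unadjusted p under 0.05, and DESeq2 and limma voom called 0. Of all genes, 0.0829% passed in edgeR in that comparison and 6.58% had an unadjusted p under 0.05. DESeq2 and limma voom called 48 and 17 of all genes. In CE against C 0 members passed in edgeR, where 0.207% of all genes did. Mycn alone had an unadjusted p under 0.05 (5.14% of all genes). It was the 1 member called by DESeq2 and by limma voom, which called 66 and 109 of all genes. In C against WT 0 members passed in edgeR beside 0.656% of all genes. Myc and Mxd4 had an unadjusted p under 0.05 (23.2% of all genes). Both other tools called these 2, beside 1195 (DESeq2) and 1773 (limma voom) of all genes. In CE against E 0 members passed in edgeR beside 1.58% of all genes. Myc and Mxd4 had an unadjusted p under 0.05 (22.6% of all genes). Limma voom called Myc, beside 1392 of all genes, and DESeq2 called no member, beside 1182. In the average transgene effect 0 members passed in edgeR beside 0.539% of all genes (0.187% higher and 0.352% lower). Of the members 1, Mycn, had an unadjusted p under 0.05, as did 8.98% of all genes. DESeq2 called Mycn, beside 208 of all genes, while limma voom called 0 members, beside 177. In the average caspase effect 2 of 10 members passed, Myc lower and Mxd4 higher, beside 21.0% of all genes, so the members' share is near that of all genes; 3 members, with Mnt, and 35.3% of all genes had an unadjusted p under 0.05. For the difference between the transgene effects 0 members and 0 of all genes passed in edgeR, with 0 members and 305 genes (2.11%) at an unadjusted p under 0.05.

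Groups without overlap were found for 1 member in E against WT (Mycn), where 8.02% of all genes were separated in this way. The count was 3 in CE against C (Myc, Mycn and Max) beside 14.9% of all genes. It was 4 in C against WT (Myc, Mycn, Mxd4 and Mlx) beside 26.3%, and 4 in CE against E (Myc, Max, Mxd4 and Mnt) beside 29.9%. The 4 comparisons share their groups in pairs, so these counts are not independent of each other. The median log2 difference of the members was 0.07, 0.08, 0.05 and 0.08 in the same order, against -0.00, 0.01, -0.01 and 0.00 for all genes.

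**Figure D3:**
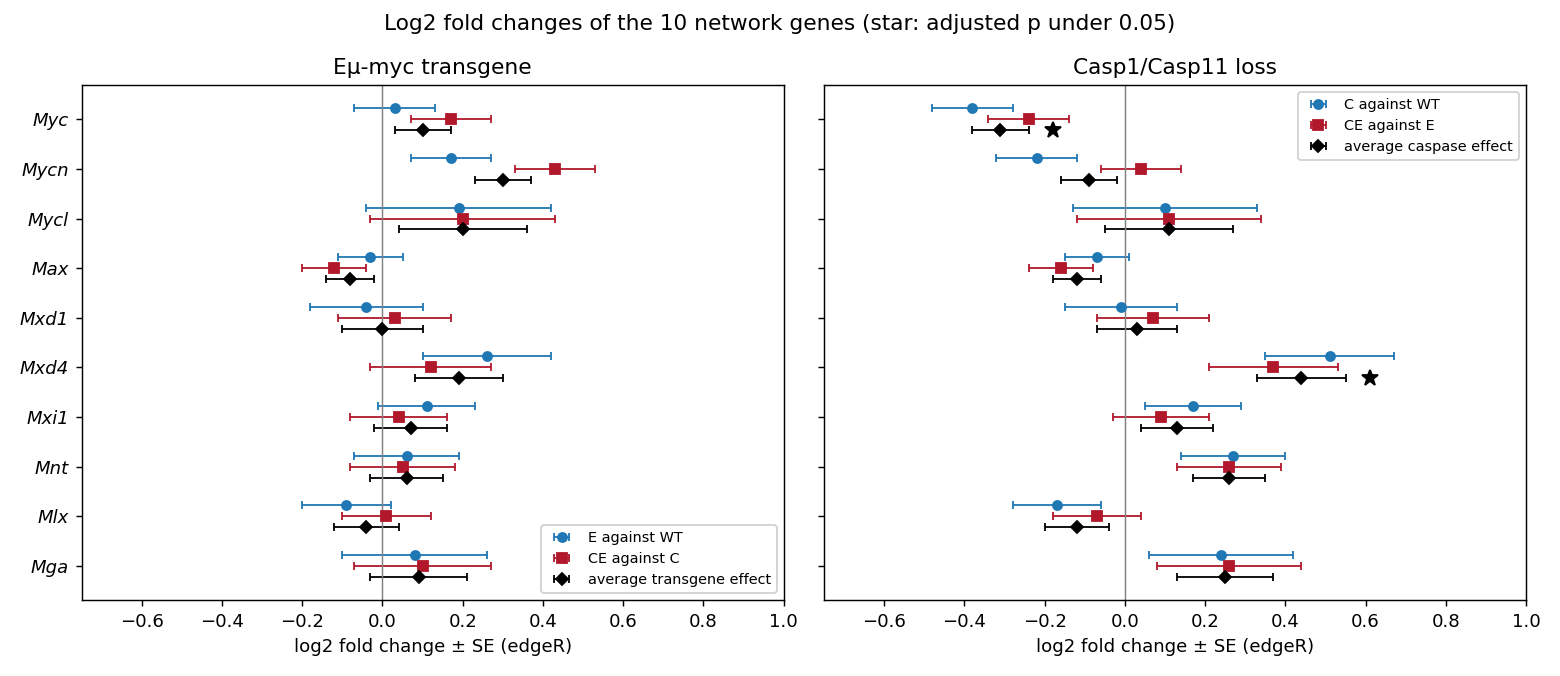
Log2 fold changes of the 10 genes with their SE from edgeR, for the transgene (left) and the caspase label (right); circles and squares are the 2 backgrounds, diamonds the average over both. Stars mark the 2 values that passed, Myc at -0.31 and Mxd4 at 0.44 in the average caspase effect; Mycn at 0.43 in CE against C is the farthest from 0 on the left and did not pass.

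Immediate early transcripts and markers of other cells moved with the caspase label as well. Of the 10 immediate early genes, 9 rose in the average caspase effect, Egr1 by 2.64-fold (adjusted p = 0.00267). In that comparison 9.26% of all genes rose and 11.8% fell. Of the 6 basophil and mast cell markers, 5 fell; their sum was 164.5 to 260.4 CPM in WT and 92.4 to 283.5 in E, against 93 to 136.9 CPM in C and 71.1 to 73.2 in CE. Of the 9 macrophage markers, 4 fell, and their sum was 150.7 to 209.7 CPM over the 12 libraries. Of the 12 HSC markers, 4 rose with the caspase label as well, with a median of 0.17 over the 12. None of these markers was at 0 in all libraries of a group. The part of these cells in the Myc and Mxd4 values was not tested. Without C1 and C3 together, Myc kept its estimate of -0.31 and Mxd4 had 0.48, and neither passed (adjusted p = 0.118 and 0.113). That fit called 20 of all genes, against 3042 in the main fit.

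**Figure D4:**
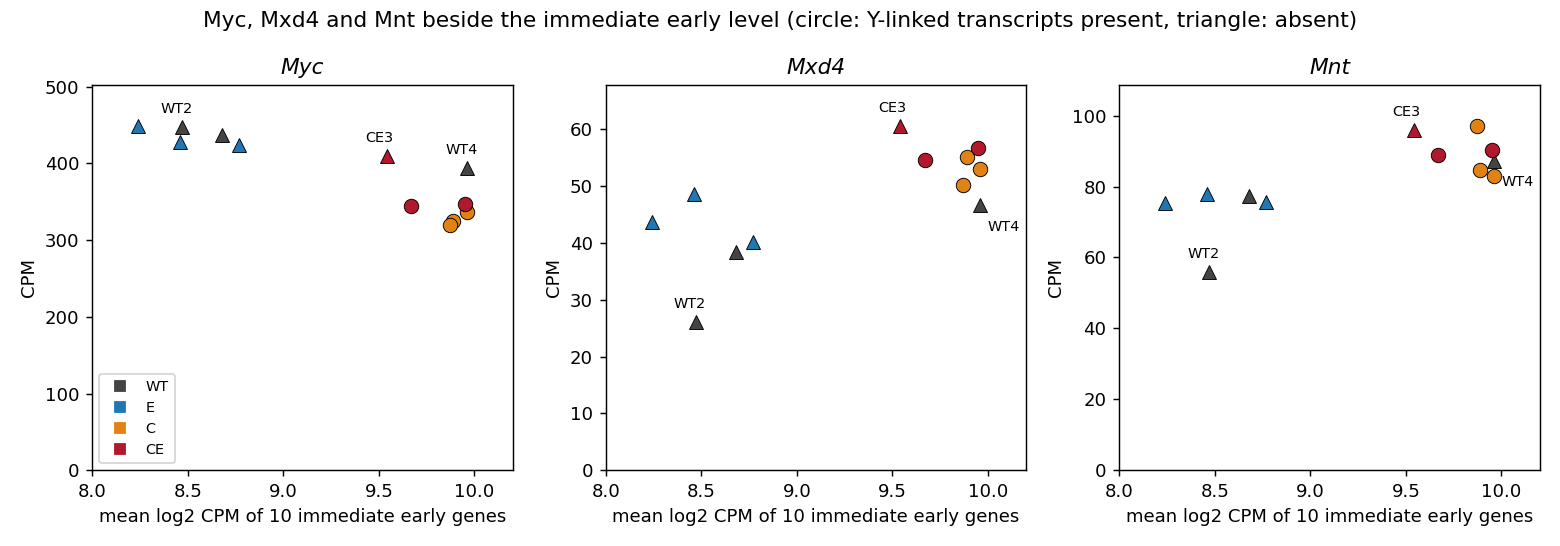
CPM of Myc, Mxd4 and Mnt against the mean log2 CPM of the 10 immediate early genes in the 12 libraries; colours are groups, circles libraries with Y-linked transcripts and triangles those without. WT4 lies at 9.96 on the horizontal axis, among the C and CE libraries (9.54 to 9.96), while the other WT and E libraries lie at 8.24 to 8.77.

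The wider network holds Mxd3, Mlxip and Mlxipl. Mlxip, which encodes MondoA, the sensor of glucose phosphates that pairs with MLX, was at 104.5, 124.3 and 128.8 CPM in WT2, WT3 and WT4 and 110.1 to 130.5 in E. It was at 138.9 to 150.0 CPM in C and 131.7 to 155.1 in CE, above every library without the knockouts, a separation not counted over all genes. It rose 1.21-fold in the average caspase effect (log2 0.27, SE 0.07, adjusted p = 0.0181). Txnip and Arrdc4, the arrestin-family genes that MondoA and MLX induce and that restrain glucose uptake, rose in the same comparison. Txnip averaged 262.1 ± 54.7 CPM in WT and 302.3 ± 17 in E, against 307.2 ± 16.5 CPM in C and 400.5 ± 5.14 in CE (mean and SD of 3 libraries). Its rise was 0.32 on the log2 scale (SE 0.09, adjusted p = 0.021). Arrdc4 averaged 12.5 ± 1.9, 13.9 ± 1.1, 16.5 ± 1.16 and 16.9 ± 2.14 CPM in the same order (log2 0.34, SE 0.10, adjusted p = 0.0275). In the average caspase effect 9.26% of all genes passed as higher and 11.8% as lower.

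Of 24 genes that MYC is known to activate, 23 lay below 0 in E against WT, with a median of -0.17, and 24 lay below 0 in CE against C, with a median of -0.14. The medians of all genes were -0.00 and 0.01. None of the 24 passed in either comparison with edgeR, DESeq2 or limma voom, and 3 and 2 of them had an unadjusted p under 0.05. Odc1, which encodes the first enzyme of polyamine synthesis and is named after its values were seen, had the smallest p in both, at -0.39 (SE 0.12, adjusted p = 0.533) and -0.27 (SE 0.12, adjusted p = 0.935). Without WT2 the count in E against WT was 18 of 24 below 0, with a median of -0.10.

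In the average caspase effect, 4 of the 24 fell and 2 rose, shares near the 11.8% and 9.26% of all genes that did. Eif4e, the cap-binding factor of translation, fell 1.34-fold (log2 -0.42, SE 0.09, adjusted p = 0.00804), and Npm1, a nucleolar chaperone of ribosome assembly, fell 1.48-fold (log2 -0.57, SE 0.13, adjusted p = 0.00872). Npm1 was at 1091, 946.8 and 609.0 CPM in WT2, WT3 and WT4, so that WT4 lay within the 445.8 to 650.3 CPM of the C and CE libraries. Cad, the enzyme that starts pyrimidine synthesis, rose 1.31-fold (log2 0.39, SE 0.09, adjusted p = 0.00939). The other 3, named after their values were seen, were Ccnd2, higher by 0.30, and Hspe1 and Nme1, at -0.36 and -0.30. Without WT4 the counts were 9 lower and 3 higher, in a fit where 4667 of all genes passed in place of 3042.

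In the average caspase effect, where 9.26% of all genes rose and 11.8% fell, 6 of 15 coactivators of MYC rose and 0 fell. They include Trrap, the scaffold of histone acetyltransferase complexes (1.26-fold, adjusted p = 0.0075), and Ccnt1, the cyclin of the elongation kinase CDK9 (1.39-fold, adjusted p = 0.0116). Of 17 corepressors of the MXD, MNT and MGA complexes, 3 fell and 0 rose. These were the SIN3 complex genes Sap30 (1.27-fold, adjusted p = 0.0106), Rbbp7 (1.19-fold, adjusted p = 0.0188) and Hdac2 (1.22-fold, adjusted p = 0.0189). Without WT4, where calls over all genes went from 3042 to 4667, 6 of the 17 fell and 1 rose. Rbbp7 lies on chromosome X, and sex went with this label.

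Of 16 genes that act on the stability of the MYC protein, 1 passed in the average transgene effect, beside 0.539% of all genes. Pim2, a kinase on chromosome X that phosphorylates MYC, was at 23.5, 25.1 and 25.1 CPM in WT2, WT3 and WT4 and at 35.7, 29.1 and 33.8 in E1, E2 and E3. The C libraries held 24.2, 22.4 and 25.1 CPM and the CE libraries 35.3, 27.6 and 38.5 CPM, by library number. All 6 libraries with the transgene label lay above all 6 without it, a separation not counted over all genes. Pim2 rose 1.38-fold (log2 0.46, SE 0.09, edgeR adjusted p = 0.0281). It passed in 3 of the 12 fits that left out 1 library. Its estimate was 0.41 with the Y-linked covariate (adjusted p = 0.0623). In the average caspase effect, the ubiquitin ligase gene Huwe1, also on chromosome X, rose 1.3-fold (adjusted p = 0.0109) and the phosphatase subunit gene Ppp2r5a 1.17-fold (adjusted p = 0.0198). The deubiquitinase gene Usp37 fell 1.16-fold (adjusted p = 0.0422). These 2 higher and 1 lower of the 16 stand beside 9.26% and 11.8% of all genes. Without WT4 4 of the 16 rose and 5 fell, beside the same move from 3042 to 4667 calls over all genes.

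Of the 5 tested genes that MYC is known to repress, Cdkn1c, an inhibitor of the cell cycle, rose in the average caspase effect (1.55-fold, from 4.15 ± 1.59 CPM in WT and 3.58 ± 0.205 in E to 5.56 ± 0.676 in C and 6.4 ± 1.27 in CE, SD of 3 libraries; adjusted p = 0.0165). Gadd45a, a stress response gene, fell (1.28-fold, adjusted p = 0.0234). Over all genes, 9.26% rose and 11.8% fell in this effect. Of 8 other factors that bind E-boxes, Srebf2, the regulator of cholesterol synthesis (1.29-fold, adjusted p = 0.0336), and Usf2 (1.2-fold, adjusted p = 0.0371) rose. Pvt1, the long noncoding RNA next to Myc, averaged 4.67 ± 0.595 CPM in WT and 4.37 ± 0.772 in E, against 4.62 ± 0.579 CPM in C and 3.01 ± 0.937 in CE (SD of 3 libraries), and did not pass. None of the genes named for the average caspase effect in these lists passed with the Y-linked covariate, with the immediate early covariate or without C1 and C3 together. Those fits called 2, 7 and 20 of all genes in that order, against 3042 in the main fit.

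The genes with the pattern most like that of Myc were sought by the root mean square difference of log2 CPM over the 12 libraries, after each gene's mean was subtracted, among 10991 genes. The closest were Galk2 (0.074), Fam174a (0.075), Asb8 (0.076), Fbxo22 (0.079) and Adprm (0.081), against 0.183 for a flat pattern. Galk2, a sugar kinase gene, averaged 46.9 ± 2.24 CPM in WT and 49.3 ± 0.779 in E, against 36.3 ± 2.32 CPM in C and 38.5 ± 1.57 in CE (SD of 3 libraries). Within the network Max was closest to Myc (0.155, rank 948), followed by Mlx (0.160, rank 1159) and Mycn (0.168, rank 1489), and Mxd4 was farthest (0.457, rank 10313).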

How the data were processed

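RNA sequencing was done on total RNA from HSCs sorted from 12 mice. The deposited table holds raw counts per gene, made by the authors, for 27179 genes by NCBI Gene number. Alignment with STAR 2.5.3 to mm10 is per the submitters' processing notes; no source used here gives the read counter, its annotation or the strand setting. Symbols came from RefSeq (GRCm38.p6), which matched 25275 gene numbers, and transcript lengths from GENCODE for the same assembly.

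From these counts, all 12 libraries were fitted together with edgeR 4.0.16 (R 4.3.3), with TMM factors, the filterByExpr filter by group and group means. The two-sided quasi-likelihood F test was used, with a threshold of 0.05 on p-values adjusted by Benjamini-Hochberg over 14473 tested genes (biological coefficient of variation 0.139). The average transgene effect is the mean of E and CE minus the mean of WT and C on the log2 scale; the average caspase effect is the mean of C and CE minus the mean of WT and E. CPM are counts scaled to the effective library size (CPM function of edgeR). Libraries held 24529611 to 34065910 counts. With 3 mice per group, p-values set each difference against the spread between mice, estimated over all 12 libraries and moderated over genes. For the caspase label they do not separate it from sex or the immediate early level.

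Alternatives were RLE factors, other filters on low counts, DESeq2 1.42.0, limma 3.58.1 voom with quality weights, only the groups compared, the replicate number as a block, presence of Y-linked transcripts (a sum over 1 CPM) as a covariate, leaving out each library, and leaving out C1 and C3 together. The immediate early covariate and median transcript lengths were added after the data were seen. The fit was tested on simulated counts of E against WT, where 2.22% of its calls were false. Members and gene lists were chosen with earlier results of these data known. All members are named; of each other list, up to 3 genes past the threshold with the smallest p in a comparison, and the 5 genes most like Myc. Some genes are not reported here by name.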

Additional observations from a re-analysis of the deposited data

How the results depend on the processing

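No member passed in E against WT or in the difference between the transgene effects under any alternative run. In CE against C 1 member (Mycn) passed with no filter on low counts, with DESeq2 and with limma voom. These fits called 203, 66 and 109 of all genes. In C against WT 2 members (Myc and Mxd4) passed with those 3 alternatives, which called 1554, 1195 and 1773 of all genes. With the replicate block 3 members passed (with Mnt), beside 2045 of all genes. Only WT4 has replicate number 4, so the block in effect leaves WT4 out and is not separate from that fit. Leaving out 1 library gave 0 to 3 members, the 3 without WT4, beside 2258 of all genes. In CE against E 1 member passed with limma voom (Myc) and with only the groups compared (Mxd4), beside 1392 and 843 of all genes. Leaving out 1 library gave 0 to 1, the 1 being Mxd4 without WT2, beside 1099 of all genes. In the average transgene effect 1 member (Mycn) passed with no filter and with DESeq2, beside 339 and 208 of all genes. In the average caspase effect 0 members passed with the Y-linked covariate, the immediate early covariate or without C1 and C3 together. Over all genes, 2, 7 and 20 passed in those fits, against 3042 in the main fit. With 1 library left out, 2 to 3 members passed, beside 1594 to 4667 of all genes. The cause of these changes was not tested, except that leaving out libraries reduces the sample and the replicate block gives WT4 no weight.

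Some estimates near 0 changed sign. Myc in E against WT was -0.00 with limma voom, -0.02 with the replicate block, -0.05 with the immediate early covariate and -0.02 to 0.08 when 1 library was left out. Mycn turned to 0.10 in C against WT and 0.17 in the average caspase effect with the Y-linked covariate, to 0.05 there with the immediate early covariate, and to -0.03 in CE against E with limma voom (-0.07 to 0.10 with 1 library left out). With the immediate early covariate Mxd4 and Mnt in CE against E were -0.03 and -0.05, and Mga in the average transgene effect was -0.05. With the Y-linked covariate Mga and Mlx in the average caspase effect were -0.14 and 0.12. Leaving out 1 library gave Mnt -0.09 to 0.20 in E against WT and -0.02 to 0.13 in the average transgene effect.

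Counts over all genes moved between the fits as well. In E against WT 12 genes passed, and 1 to 217 under the alternatives. The counts were 30 and 0 to 203 in CE against C, 95 and 1 to 2258 in C against WT, 229 and 1 to 1578 in CE against E, 78 and 24 to 339 in the average transgene effect, and 3042 and 2 to 4667 in the average caspase effect. For the difference, no filter on low counts gave 39. The highest counts of those 2 caspase comparisons and of the average caspase effect came without WT4, and the share of genes set beside the members moves with them. Replicate numbers did not pair the libraries: deviations of same-numbered libraries correlated at -0.24 to 0.17 (median -0.05) and those of others at -0.26 to 0.28 (median 0.01). With 3 mice per group, SEs for the members were 0.06 to 0.33. In simulated counts of E against WT, the only comparison simulated, the fit recovered 29.9% of 1.5-fold and 77.6% of 2-fold changes. The difference seen for Mycn (1.34-fold in CE against C) was below 1.5-fold. A member that did not pass between 2 groups may therefore still differ by such amounts. The simulation does not cover the average effects, which use all 12 libraries. In the average caspase effect Myc passed at 1.24-fold and Mnt did not pass at 1.2-fold, so a member that did not pass there may still differ too.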

Other observations

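The E-box found in the promoter windows of Mxd4, Mnt, Mlx and Max was also followed over the whole table. Of the tested genes with a promoter window, 1270 held CACGTG and 9744 did not. In the average caspase effect, where Myc was lower and Mxd4 higher, 9.53% of the genes with the motif were higher and 12% lower. Among the genes without it these shares were 9.52% and 12.1%. In the average transgene effect 0 genes with the motif were higher and 4 lower, against 21 and 35 of those without. The median log2 differences with and without the motif were 0.008 and -0.001 for the caspase label and -0.012 and 0.003 for the transgene. No test was made, since genes are not replicates of a condition.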
